A study of Mus musculus with 4 samples.

Results

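The genes described here are 37 genes of the endoplasmic reticulum (ER) stress response and the integrated stress response, chosen by symbol. A total of 35 had a probe set of their own among the 30744 named genes of the arrays, and the other 2, Pdia4 and Manf, were read by probe sets shared with another gene and are given separately. By role, 3 encode stress sensors, 23 belong to the XBP1 and ATF6 branch (chaperones, disulfide isomerases and the degradation machinery), 10 belong to the ATF4 branch, and Dnajc12 was put in neither.

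Mouse liver was measured on 4 single-channel arrays, 1 for each of 4 groups. The wildtype 0 h group was fasted male mice carrying a floxed Yap gene, and the YAP-KO 0 h group was fasted male mice with that gene knocked out. The wildtype 24 h and YAP-KO 24 h groups were fasted male mice of the same genotypes, given 300 mg/kg acetaminophen (APAP) into the peritoneum 24 h before the livers were taken. Each array held RNA pooled from 3 mice, so the spread between mice was not measured. Age, strain, the driver of Cre and the cell types that lost Yap are not given in the sources used here. None of the arrays held mice kept for 24 h without APAP, so the overdose, the passage of time and any feeding cannot be told apart. A 24 h response below means the whole difference between 24 h and 0 h. Values are log2 signals, in which a difference of 1 is 2-fold.

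With 1 array per group, differences between arrays had no replicate check and no test of their own. They are described by size beside the 18461 genes at or above a level of 4.32 (the 40th percentile of gene means), and all 35 members with an own probe set were among these. Pairs of values below give wildtype first and YAP-KO second. Yap1 itself read 7.54 and 6.31 before APAP, then 8.24 and 6.01 after, lower in YAP-KO at both times. Of the 7 hepatocyte markers with an own probe set, 5 were at the top of the scale on all 4 arrays, in keeping with liver. These were albumin and 4 other plasma protein genes, and differences between arrays cannot be read for them. The remaining markers, Cps1 and Cyp2e1, read lowest on the wildtype 24 h array. Cps1 read 19.84 and 19.81 before APAP, then 19.08 and 19.85 after. Cyp2e1 read 19.86 and 19.83, then 19.38 and 19.87, and was at the top of the scale except in wildtype at 24 h. Their part in the results was not tested. No ER stress member was at the top of the scale on any array. In bulk liver, fewer cells of a type and less RNA per cell cannot be told apart.

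Proteins that enter the ER are folded there by chaperones and oxidised by disulfide isomerases, and those that fail are exported for degradation. When misfolded proteins build up, the sensor IRE1 splices Xbp1 mRNA to make an active transcription factor, and the sensor ATF6 is cut to release another; both switch on chaperone and degradation genes. The third sensor, PERK, phosphorylates the translation factor eIF2, as do other kinases that sense amino acid lack, haem lack or viral RNA, and this favours translation of ATF4, which switches on genes of amino acid supply and, when stress persists, of cell death. Hepatocytes secrete most plasma proteins and carry a large ER.

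The promoters of the branches differ in known elements. The ER stress element (ERSE), through which ATF6 and XBP1 act, is CCAAT, then 9 bases of any kind, then CCACG, and its variant ERSE-II is ATTGG, 1 base of any kind and CCACG. The core of the element bound by ATF4 with a C/EBP partner (CARE) was searched as TGATGNAA. Both strands were read in RefSeq windows (GRCm38.p6) of 250 bases before to 50 bases after each gene start, which existed for 31 of the 37 members. ERSE and ERSE-II share the letters CCACG, and ATTGG is CCAAT read on the opposite strand. A full ERSE stood in the windows of 9 of the 19 XBP1 and ATF6 branch genes with a window and 0 of the 10 ATF4 branch genes, against 37 of all 27025 genes (0.137%). ERSE-II was found in Herpud1 and Dnajb11, against 12 of all genes (0.0444%). CARE was found in 4 of the 10 ATF4 branch genes (Asns, Chac1, Nupr1 and Trib3) and in Herpud1, against 4.51% of all genes. A match describes letters, not binding. The XBP1 and ATF6 branch is named for the factors that act through ERSE, so its matches are no independent finding.

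The sequences below are shown because they carry the elements searched for, in members whose differences between the arrays ranged from large to small. Each runs 5′ to 3′ on the gene's own strand, with the motif in capitals; a motif lying on the opposite strand appears as its reverse complement.
Hspa5, ERSE, chr2:34772005-34772063 (+): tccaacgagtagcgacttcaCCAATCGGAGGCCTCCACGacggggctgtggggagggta
Syvn1, ERSE, chr19:6046512-6046570 (+): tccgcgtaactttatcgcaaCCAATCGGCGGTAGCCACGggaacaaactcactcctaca
Creld2, ERSE reversed, chr15:88819500-88819558 (+): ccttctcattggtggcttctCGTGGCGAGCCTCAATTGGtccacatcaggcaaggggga
Derl3, ERSE reversed, chr10:75893222-75893280 (+): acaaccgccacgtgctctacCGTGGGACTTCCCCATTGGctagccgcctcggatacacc
Canx, ERSE, chr11:50325780-50325838 (-): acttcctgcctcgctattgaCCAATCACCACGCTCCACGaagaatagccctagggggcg
Herpud1, ERSE-II, chr8:94386357-94386407 (+): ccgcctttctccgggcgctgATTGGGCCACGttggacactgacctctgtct
Herpud1, CARE reversed, chr8:94386297-94386344 (+): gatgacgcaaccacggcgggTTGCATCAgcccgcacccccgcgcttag
Asns, CARE, chr6:7693210-7693252 (-): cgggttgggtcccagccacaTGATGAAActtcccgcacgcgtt
Chac1, CARE reversed, chr2:119351029-119351076 (+): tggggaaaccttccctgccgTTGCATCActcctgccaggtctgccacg
Counted back from the gene start, the ERSE lay at -65 in Hspa5, -44 in Syvn1, -126 in Creld2, -156 in Derl3 and -145 in Canx. Dnajc3, Pdia6, Calr and Hsp90b1 hold the other ERSE matches, and Hsp90b1 has 2.

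The 24 h arrays separated the branches. Of the 21 XBP1 and ATF6 branch genes with an own probe set, 20 read highest on the YAP-KO 24 h array, and Xbp1 was the exception. Of the 10 ATF4 branch genes, 8 read highest on the wildtype 24 h array, the exceptions being Ddit3 and Nupr1. For Trib3, Chac1 and Ppp1r15a, which are among the 8, this order rests on small differences near the level filter. At 24 h Trib3 read 4.91 and 4.73, Chac1 5.26 and 5.07, and Ppp1r15a 5.14 and 4.83. No detection call was used. The median difference between YAP-KO and wildtype at 24 h was 1.27 for the XBP1 and ATF6 branch and -0.30 for the ATF4 branch, against -0.02 over all genes. The opposite directions of these medians held after quantile normalization (1.64 and -0.24) and after centring each array on its median (1.38 and -0.20).

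**Figure D1:**
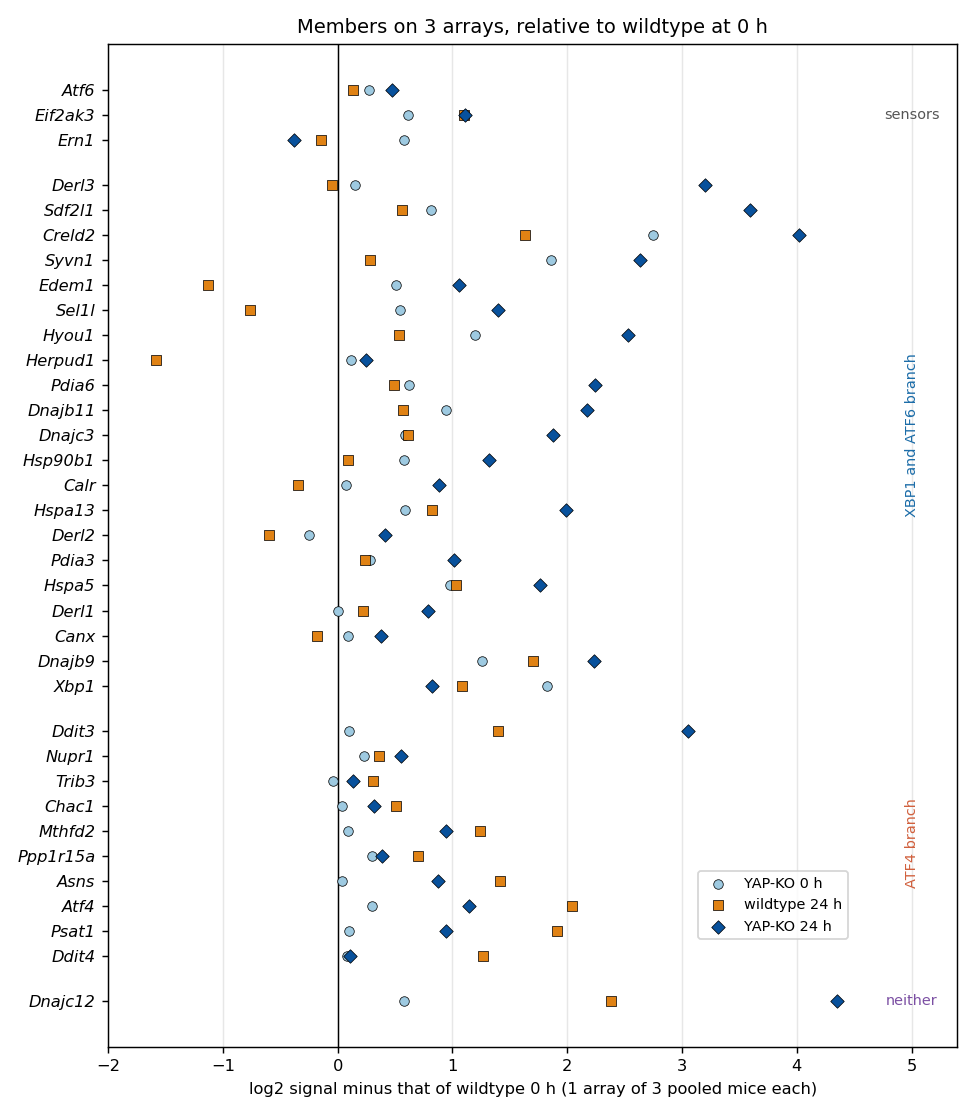
Each row is a member, and each point is the log2 signal of 1 array of 3 pooled mice minus that of the wildtype 0 h array (vertical line at 0). Dark diamonds (YAP-KO 24 h) are the rightmost points for 20 of the 21 XBP1 and ATF6 branch genes, up to 4.02 for Creld2. Orange squares (wildtype 24 h) are the rightmost points for 8 of the 10 ATF4 branch genes. Among these 8, Trib3, Chac1 and Ppp1r15a lay near the level filter and differed little between the 24 h arrays.

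Before the overdose, the XBP1 and ATF6 branch was already higher in YAP-KO liver, whereas the ATF4 branch was nearly level. At 0 h 5 of the 35 members differed by 2-fold or more toward YAP-KO and 0 toward wildtype, where 1.01% and 0.878% of all genes were. All 5 belong to the XBP1 and ATF6 branch: Creld2, Syvn1, Xbp1, Dnajb9 and Hyou1. Of the 21 genes of that branch 19 lay above 0, with a median of 0.59, Derl1 was equal on both arrays and Derl2 was at -0.25. The ATF4 branch ran from -0.04 to 0.30 with a median of 0.10, and the median of all genes was -0.03. The branches were read at unequal levels. On the wildtype 0 h array the mean was 12.25 for the XBP1 and ATF6 branch and 5.45 for the ATF4 branch. Levels of the ATF4 branch there ran from 4.44 to 7.23, the lowest close to the filter level of 4.32. Whether low signal kept the ATF4 differences small was not tested.

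Of the 3 sensor genes, 1 (Eif2ak3, in wildtype) had a 2-fold response. Of all genes 12.7% were 2-fold higher and 5.89% lower at 24 h in wildtype, and 4.72% and 2.22% in YAP-KO. After quantile normalization the wildtype response of Eif2ak3 was 0.78, and the sensor with a 2-fold response was Ern1, at -1.18 in YAP-KO. Ern1, which encodes IRE1, read 10.51 and 11.09 before APAP, then 10.36 and 10.13 after. Its 24 h response was -0.15 in wildtype and -0.96 in YAP-KO, just short of 2-fold. Eif2ak3, which encodes PERK, read 8.01 and 8.62 before APAP, then 9.11 and 9.12 after; the genotypes ended level from unequal starts. Atf6 stayed between 10.94 and 11.41 on all 4 arrays. The sign of its 24 h response (0.13 in wildtype and 0.20 in YAP-KO) turned in both genotypes after quantile normalization and in wildtype after centring.

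Xbp1 (Entrez gene 22433), the transcription factor gene downstream of IRE1, differed between the times in opposite directions in the genotypes. It read 11.67 and 13.49 before APAP, then 12.75 and 12.49 after. The YAP-KO 0 h array was the highest of the 4 and the wildtype 0 h array the lowest, so the 24 h response was 1.08 in wildtype and -1.0 in YAP-KO. Spliced and unspliced Xbp1 mRNA are not separated in these values.

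The chaperones and co-chaperones of the ER lumen were higher on the YAP-KO 24 h array than on the other 3. Hspa5, which encodes the Hsp70 chaperone BiP, read 15.49 and 16.47 before APAP, then 16.52 and 17.25 after. Wildtype at 24 h thus reached about the level of YAP-KO at 0 h, and the genotypes differed by 0.98 and 0.73 at the respective times. After quantile normalization the wildtype response of Hspa5 was 0.46 and the genotypes differed by 0.88 and 1.12. With that scaling wildtype at 24 h stayed below YAP-KO at 0 h, and the genotypes were further apart at 24 h than at 0 h. Hsp90b1, encoding GRP94, was nearly level between wildtype times (17.28 and 17.37, a difference that turned sign after centring) but read 17.86 and then 18.60 in YAP-KO. Hyou1, an ER Hsp110 that exchanges nucleotide on BiP, read 10.92 and 12.12 before APAP, then 11.45 and 13.45 after in wildtype and YAP-KO, so that YAP-KO was 4.0-fold higher at 24 h.

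Among the J-proteins, which hand clients to BiP, Dnajb9 was the one with the larger wildtype response. It read 13.39 and 14.65 before APAP, then 15.09 and 15.62 after, with responses of 1.70 and 0.97. Dnajb11 read 9.44 and 10.38, then 10.01 and 11.61, and Dnajc3 read 14.13 and 14.72, then 14.74 and 16.01. Both had responses of over 2-fold in YAP-KO (1.23 and 1.29) and of 0.57 and 0.61 in wildtype. Hspa13, an Hsp70-like protein of microsomes, followed the order of Dnajc3, with 8.58 and 9.17 before APAP, then 9.40 and 10.57 after.

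Creld2 and Sdf2l1, small ER proteins known as targets of the unfolded protein response, gave some of the largest differences. Creld2 (Entrez gene 76737) read 10.71 and 13.46 before APAP, then 12.34 and 14.73 after. The genotypes were 2.75 apart at 0 h and 2.39 at 24 h, with similar responses of 1.63 and 1.27. Sdf2l1 behaved otherwise. It read 9.01 and 9.82 before APAP, then 9.57 and 12.60 after, so most of its 3.03 (8.17-fold) excess in YAP-KO at 24 h was not there at 0 h.

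The disulfide isomerases and lectin chaperones also read highest on the YAP-KO 24 h array, while Calr and Canx read lowest on the wildtype 24 h array. Pdia6 read 13.16 and 13.78 before APAP, then 13.65 and 15.40 after, a difference of 1.75 at the later time. Pdia3, the isomerase that works with the lectins, differed by 0.28 at 0 h and 0.77 at 24 h. Calr, encoding calreticulin, read 15.92 and 15.99 before APAP, then 15.57 and 16.80 after, while Canx, encoding calnexin, was 0.56 higher in YAP-KO at 24 h and its promoter holds a full ERSE. In wildtype Calr and Canx had responses of -0.35 and -0.18, or -0.98 and -0.80 after quantile normalization. The probe set shared by Pdia4 and the microRNA gene Mir704 read 15.08 and 15.83 before APAP, then 15.10 and 17.27 after. That shared by Manf and Rbm15b read 6.13 and 6.50, then 6.76 and 7.18.

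Genes of ER-associated degradation, which returns misfolded proteins to the cytosol, included those that were lower in wildtype liver at 24 h than before. Herpud1, a scaffold of the degradation complex, read 16.55 and 16.67 before APAP, then 14.97 and 16.80 after; only the wildtype 24 h array stood apart. Edem1, which marks glycoproteins for removal, read 12.72 and 13.23, then 11.59 and 13.78. Sel1l, the adaptor of the ubiquitin ligase, read 12.53 and 13.07, then 11.77 and 13.93. At 24 h YAP-KO exceeded wildtype 3.56-fold for Herpud1, 4.56-fold for Edem1 and 4.47-fold for Sel1l, while at 0 h the differences were 0.12, 0.51 and 0.54.

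Syvn1, which encodes the ubiquitin ligase itself (HRD1), did not follow its adaptor. It read 7.56 and 9.42 before APAP, then 7.84 and 10.19 after, so YAP-KO was higher by 1.86 and 2.35 with a response in wildtype of 0.28 (-0.04 after quantile normalization). The 3 derlins, channel proteins of the same complex, differed from each other. Derl3 (Entrez gene 70377) read 5.34, 5.49 and 5.29 in wildtype at 0 h, YAP-KO at 0 h and wildtype at 24 h, and 8.54 on the YAP-KO 24 h array, 9.51-fold above wildtype at 24 h and the largest such difference among the members. Derl2 read 8.38 and 8.13 before APAP, then 7.78 and 8.79 after, and Derl1 stayed between 12.83 and 13.62.

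**Figure D2:**
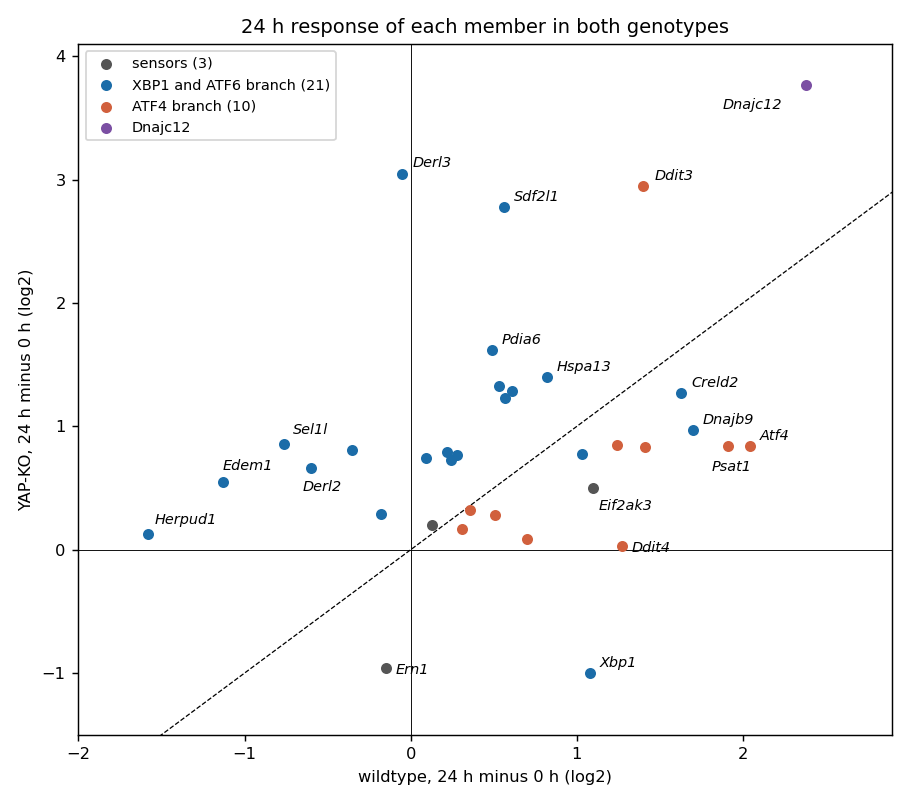
Each point is a member, placed by its log2 difference between 24 h and 0 h in wildtype (horizontal) and in YAP-KO (vertical); the dashed line marks equal responses. Of the XBP1 and ATF6 branch, 17 of 21 genes lie above the line, and of the ATF4 branch 9 of 10 lie below it, Ddit3 being the exception; Hspa5 and Nupr1, close to the line, cross it under another scaling.

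The ATF4 branch had the larger 24 h response in wildtype for 9 of its 10 genes, of which Nupr1 (0.36 and 0.32) turned order after centring. Of the XBP1 and ATF6 branch 17 of 21 genes had the larger response in YAP-KO, and of the other 4 Hspa5 turned order after quantile normalization. Atf4 (Entrez gene 11911) read 7.12 and 7.42 before APAP, then 9.16 and 8.26 after, a response of 2.04 against 0.84. The serine synthesis gene Psat1 read 5.06 and 5.16, then 6.97 and 6.0, and was 1.96-fold lower in YAP-KO at 24 h. Asns, encoding asparagine synthetase, read 6.44 and 6.48, then 7.85 and 7.31. For these 3 genes both 24 h arrays lay above both 0 h arrays, with wildtype on top. The mitochondrial folate enzyme gene Mthfd2 had the same order but a closer pair at 24 h (5.16 and 5.25, then 6.40 and 6.10).

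Ddit4, an inhibitor of mTOR complex 1 signalling, was high on the wildtype 24 h array alone. It read 4.93 and 5.01 before APAP, then 6.2 and 5.04 after, and it was the sole member at least 2-fold lower in YAP-KO at 24 h. Ppp1r15a, which encodes the GADD34 subunit that reverses eIF2 phosphorylation, ranged from 4.44 to 5.14 and was also highest in wildtype at 24 h. The pseudokinase gene Trib3 (4.56 to 4.91), the glutathione-degrading enzyme gene Chac1 (4.75 to 5.26) and the stress protein gene Nupr1 (4.73 to 5.28) differed by 0.55 or less between any arrays. Ppp1r15a and these 3 genes lay near the filter level of 4.32, and no detection call was used.

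Ddit3 (Entrez gene 13198), encoding the transcription factor CHOP, went against the rest of its branch. It read 7.23 and 7.33 before APAP, then 8.63 and 10.28 after, so YAP-KO was 3.14-fold higher at 24 h. Its other probe set gave the same order (6.88 and 7.03, then 8.29 and 9.47). Both probe sets read highest on the YAP-KO 24 h array. Dnajc12, a cytosolic J-protein that helps to fold the aromatic amino acid hydroxylases, had the largest response of all members in both genotypes. It read 6.87 and 7.45 before APAP, then 9.25 and 11.22 after, responses of 2.38 and 3.77.

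Counted over all members, 12 of 35 were at least 2-fold higher at 24 h in wildtype (12.7% of all genes were) and 2 were lower (5.89%), namely Herpud1 and Edem1. After centring each array on its median the split was 8 higher and 3 lower, since that scaling moved the wildtype median of all genes from 0.07 to -0.19. The 12 comprised 6 of the 10 ATF4 branch genes, 4 of the 21 XBP1 and ATF6 branch genes (Creld2, Dnajb9, Xbp1 and Hspa5), Eif2ak3 and Dnajc12. After quantile normalization the wildtype responses of Xbp1 (0.84) and Hspa5 (0.46) were also under 2-fold. In wildtype the ATF4 branch had a median response of 1.25. The XBP1 and ATF6 branch had a median of 0.28, close to the 0.07 of all genes, and of -0.35 when wildtype at 24 h was set against the YAP-KO 0 h array.

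In YAP-KO 10 of 35 members were at least 2-fold higher at 24 h (4.72% of all genes) and 1, Xbp1, was lower (2.22%). These were 8 genes of the XBP1 and ATF6 branch, led by Derl3 (3.05), Sdf2l1 (2.78) and Pdia6 (1.62), together with Ddit3 and Dnajc12. Dnajc3, among the 8, was at 0.87 after quantile normalization. The XBP1 and ATF6 median was 0.81 and the ATF4 median 0.57, against 0.07 over all genes. Because YAP-KO started higher, the choice of baseline mattered. Against the wildtype 0 h array 19 members were 2-fold higher, 0 were lower, and the XBP1 and ATF6 median was 1.76. The share of all genes against that baseline was not computed, so these counts have no background beside them.

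Directly between the genotypes at 24 h, 17 of 35 members exceeded wildtype 2-fold or more in YAP-KO, where 3.24% of all genes were, and 1 was lower, where 5.73% were. The 17 were 15 of the 21 XBP1 and ATF6 branch genes, Ddit3 and Dnajc12. The other 6 of the branch were Hspa5, Pdia3, Canx, Derl1, Dnajb9 and Xbp1, from -0.26 for Xbp1 to 0.77 for Pdia3. Hspa5 (1.12) and Pdia3 (1.16) passed 2-fold after quantile normalization. For the difference of the 24 h responses, which involves all 4 arrays, 10 members were 2-fold or more toward YAP-KO (5.66% of all genes) and 4 toward wildtype (7.5%). The latter were Xbp1 (-2.08), Ddit4 (-1.24), Atf4 (-1.20) and Psat1 (-1.07, or -0.99 after quantile normalization). The comparisons share arrays and are not independent of each other.

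**Figure D3:**
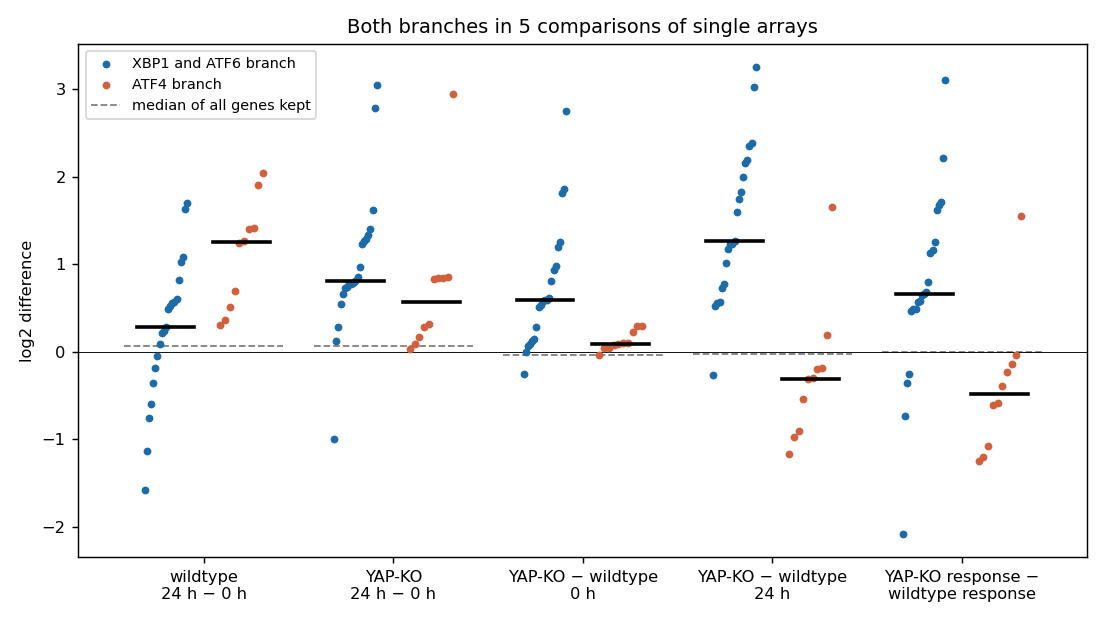
Log2 differences of the 21 XBP1 and ATF6 branch genes (blue) and the 10 ATF4 branch genes (orange) in 5 comparisons; black bars are medians and dashed lines the medians of all 18461 genes. The medians were 0.28 and 1.25 for the wildtype response, and 1.27 and -0.30 for YAP-KO against wildtype at 24 h.

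Members with and without an ERSE were also set side by side. The 11 XBP1 and ATF6 branch genes with ERSE or ERSE-II and an own probe set had a median of 1.60 between the genotypes at 24 h, and the 7 with a window but neither motif had 1.01. For the difference of responses the order turned, at 0.66 and 1.26. Syvn1 and Canx, whose sequences are printed above, differed between the genotypes at 24 h by 2.35 and 0.56.

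The test run was a limma fit with additive terms for genotype and time, which leaves 1 residual degree of freedom per gene. Its variances were drawn toward a value estimated over all genes. It called 0 of the 18461 genes for time and 0 for genotype at a Benjamini-Hochberg adjusted p under 0.05 (0.0% of all genes), and thus 0 members. At an unadjusted p under 0.05, 14 of the 35 members passed for time, beside 15.3% of all genes, and 10 for genotype, beside 2.37%; all of these members were higher at 24 h or in YAP-KO. The smallest adjusted p of the limma fit among members was 0.285 for time, shared by Creld2 and Dnajc12, and 0.997 for genotype, shared by all 35. The estimates for Creld2 were 1.45 (SE 0.199) for time and 2.57 (SE 0.199) for genotype. The fit counts any difference of responses between the genotypes as error, and its count of 0 does not show that values did not differ.

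Other genes of the same pathways were read from 4 lists. Among 26 further genes of ER folding and degradation above the filter, 5 exceeded wildtype by 2-fold or more in YAP-KO at 24 h (3.24% of all genes did) and 0 were lower by as much (5.73%), with a median of 0.58 and 24 of 26 above 0. They were led by the oxidase gene Ero1b (2.27), Pdia5 (1.82), Edem2 (1.57) and the cyclophilin gene Ppib (1.56). Ero1b read 11.03 and 11.30 before APAP, then 9.53 and 11.80 after, the order seen for Herpud1 and Edem1. Its paralog Ero1a read 8.75 and 8.81, then 11.09 and 10.13, highest on the array where Ero1b was lowest. At 0 h 0 of these 26 genes were 2-fold apart in either direction, where only 1.01% of all genes were higher and 0.878% lower in YAP-KO.

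Translocation and transport genes feed proteins into the ER and carry them on. Of 33 above the filter, 10 were at least 2-fold higher at 24 h in wildtype (median 0.72, beside 12.7% of all genes). In YAP-KO 18 were (median 1.02, beside 4.72%). In either genotype 0 were 2-fold lower, where 5.89% of all genes were in wildtype and 2.22% in YAP-KO. In wildtype the translocon-associated Ssr2 (2.0), the retrieval receptor gene Kdelr2 (1.99) and the vesicle coat gene Sec23b (1.78) had the largest responses. In YAP-KO these were the oligosaccharyltransferase genes Ostc (2.52) and Rpn1 (1.91), with Ssr2 at 1.87. Between the genotypes at 24 h the median was 0.53, with 5 genes 2-fold or more above wildtype in YAP-KO (3.24% of all genes) and 0 below (5.73%).

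Of 17 regulators above the filter 5 were 2-fold higher at 24 h in wildtype (12.7% of all genes were) and 0 in YAP-KO (4.72%), among them the amino acid sensing kinase gene Eif2ak4 (1.44 against 0.53), the RNA sensing kinase gene Eif2ak2 (1.36 against 0.50) and Rtcb (1.12 against 0.43), whose product rejoins spliced Xbp1 mRNA. Between the genotypes at 24 h 0 regulators were 2-fold apart in either direction, where 3.24% of all genes were higher and 5.73% lower in YAP-KO. The median of the regulators was -0.05, against -0.02 over all genes. Of 34 further ATF4 targets 12 were at least 2-fold higher at 24 h in wildtype and 4 in YAP-KO, and between the genotypes at 24 h 5 were 2-fold lower in YAP-KO (5.73% of all genes were) and 0 higher (3.24%). The cystine transporter gene Slc7a11, also a target of NRF2, read 4.26 and 4.20 before APAP, then 9.57 and 5.47 after. Gpt2 and Eif4ebp1 differed between the genotypes at 24 h by -2.97 and -1.21. Gpt2 had responses of opposite sign (1.89 against -1.11), and Eif4ebp1 of 1.93 against 0.54. Atf3 (2.42 against 1.36) and the transporter subunit gene Slc3a2 (2.83 against 1.83) had responses in both genotypes. Cth, encoding cystathionine gamma-lyase, was lower at 24 h in both (-3.10 and -2.10). Besides Cth, Shmt2 (-1.04) was 2-fold lower in wildtype and Gpt2 in YAP-KO, where 5.89% and 2.22% of all genes were. The median of this list between the genotypes was -0.10.

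**Figure D4:**
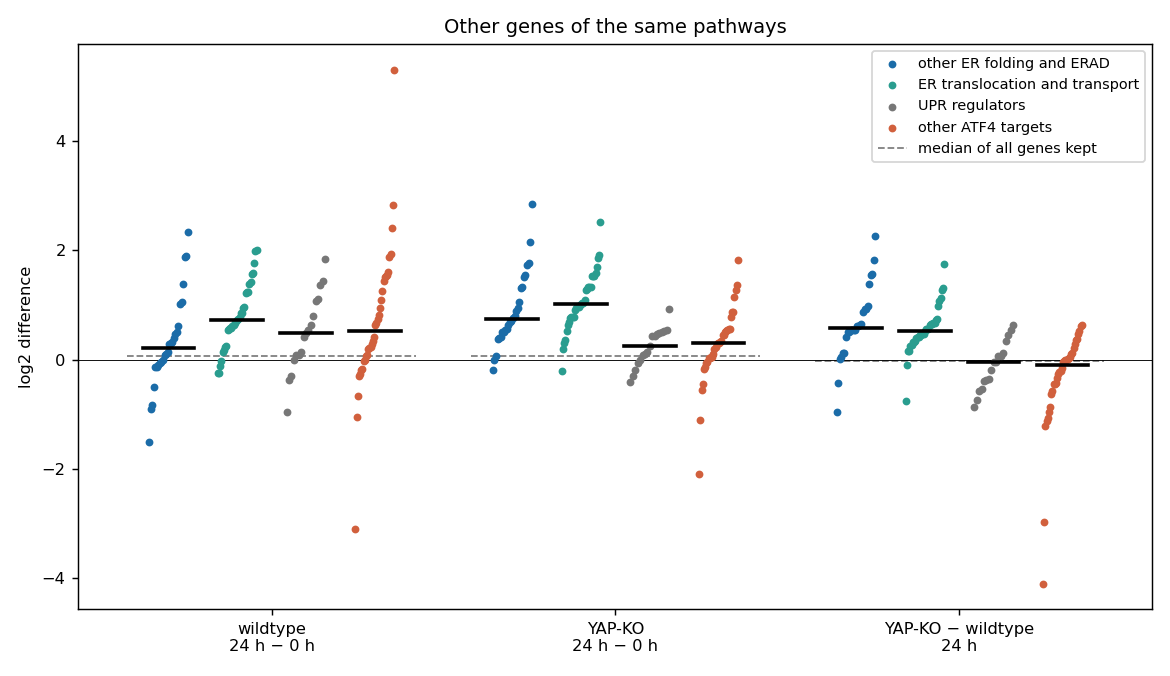
Log2 differences of 4 further lists (26, 33, 17 and 34 genes above the level filter) for the 24 h response in wildtype, that in YAP-KO, and YAP-KO against wildtype at 24 h; black bars are list medians, dashed lines the medians of all 18461 genes. Medians between the genotypes at 24 h were 0.58 and 0.53 for the folding and transport lists and -0.05 and -0.10 for the regulators and ATF4 targets.

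Markers of other cell types differed between the times, and their part in the results was not tested. The mean log2 level of 9 neutrophil markers was 5.13 and 5.24 before APAP, then 6.96 and 5.87 at 24 h; that of 9 monocyte and macrophage markers was 6.64 and 6.49, then 9.15 and 8.59. Both means were higher on the wildtype than on the YAP-KO 24 h array, the order of the ATF4 branch. Between the genotypes at 24 h, 5 of the 8 neutrophil markers above the filter were 2-fold lower in YAP-KO (median -1.34). The neutrophil markers Ly6g (0.53) and Camp (0.18) went the other way, and both were lower at 24 h in wildtype (-0.63 and -0.65). For the monocyte and macrophage list 2 of 9 were 2-fold lower, Cd14 (-3.73) and Csf1r (-1.27), the median was -0.04, and Ly6c2 was 0.97 higher. The mean of 5 endothelial markers was 9.29 and 9.40 before APAP, then 11.24 and 10.18 after, with Lyve1 (-3.88) and Cdh5 (-1.49) 2-fold lower in YAP-KO at 24 h and a median of -0.16. Plasma cells and the exocrine pancreas are rich in ER chaperones. The 7 plasma cell markers lay between 3.50 and 5.79 and the 8 pancreas markers between 3.35 and 4.83 on all arrays. Their mean levels on the YAP-KO 24 h array were 4.23 and 3.83, against 4.07 and 3.76 on the wildtype 24 h array.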

How the data were processed

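Biotin-labelled total RNA (GeneChip WT Plus kit, per the labels) from pools of 3 mice was read on 4 arrays. The authors deposited 1 value per probe set and array, treated here as log2 because they ran from 2.24 to 19.93; no header or label gives the scale, background correction or normalization, and array medians differed (4.32 to 4.47). The number of arrays limits the precision.

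Of 65956 probe sets, 31218 carried 1 gene, 1532 several and 33206 none in the platform annotation, whose symbols were updated through Entrez identifiers to RefSeq GRCm38.p6. The brightest probe set stood for a gene. Members, branches and lists were chosen with earlier results of these data known. Named genes were all members and up to 4 genes of largest difference per further list and comparison. Groups came from sample titles. Differences between arrays were called at 2-fold; limma 3.58.1 in R 4.3.3 fitted genotype plus time and was tested on simulated data. Alternatives covered scaling, probe set choice, level filter, threshold, leaving out genes at the top of the scale, and baseline array. A median was counted as moved when it shifted by 1.5-fold or more, a count when it differed by over 1.5 times. Probe sets with several genes entered no count.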

Additional observations from a re-analysis of the deposited data

Results flagged for a closer look

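Members whose 24 h responses ran in opposite directions in the genotypes, each by 1.5-fold or more, were singled out; with 1 array per group these differences were not tested. For Xbp1 the response was 1.08 in wildtype and -1.0 in YAP-KO, a difference of -2.08. For Sel1l it was -0.76 and 0.86, a difference of 1.62. For Derl2 it was -0.60 and 0.66, a difference of 1.26.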

How the results depend on the processing

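Of 153 recomputed counts and medians of the member lists, 138 stayed within the limits given for a move, 14 moved and 1 turned its sign. Part of the 138 could not move. All 35 members passed the level filter and none was at the top of the scale. Lifting the filter or leaving out genes at the top of the scale therefore changed nothing. The turned value was the wildtype response of the XBP1 and ATF6 branch, which was -0.35 with the YAP-KO 0 h array as baseline; with that baseline 7 members were 2-fold higher and 5 lower. With the wildtype 0 h array as baseline for YAP-KO, 19 were higher, 0 lower, and the XBP1 and ATF6 median was 1.76. Shares of all genes were not computed for these exchanged baselines. At a 1.5-fold threshold the members lower were 4 (wildtype response), 2 (YAP-KO response), 3 (genotypes at 24 h) and 8 (difference of responses), of 35. In the same order, 2214, 1110, 2480 and 3033 of all 18461 genes were lower. Members higher at that threshold were 23 (YAP-KO response) and 12 (genotypes at 0 h), beside 2495 and 634 of all genes. Members lower in the YAP-KO response were 2 after quantile normalization and 2 after centring. With the 60th percentile filter 0 members were lower in YAP-KO at 24 h, because Ddit4 was filtered out. Of 350 recomputed member differences, 2 moved (Calr and Canx in wildtype, after quantile normalization) and 0 that were 2-fold turned sign. Of the 350, 175 came from averaging the probe sets of a gene. Among the 35 members only Ddit3 had several, so for the others these values were the same by construction. The sign of the Hspa5 difference of responses, -0.25, became 0.24 after quantile normalization. Adding the shared probe sets of Pdia4 and Manf, chosen after seeing the data, moved 0 of 15 results. No paired analysis was possible because each group had 1 array, all numbered replicate 1.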

Other observations

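The regulator gene Creb3l2, which encodes a membrane-bound transcription factor of the ER related to ATF6, had the array order of Xbp1. It read 8.43 (wildtype) and 10.28 (YAP-KO) before APAP, then 10.27 and 9.88 after, so its response was 1.84 in wildtype and -0.40 in YAP-KO. Creb3l3, its liver-enriched relative, read 11.32 and 10.40 before APAP, then 11.41 and 10.88 after, lower in YAP-KO at both times.

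Genes outside the members that hold a full ERSE in the same promoter window were also read, an addition made after the data were seen. Of 28 such genes 12 were above the level filter. Between the genotypes at 24 h 10 of the 12 lay above 0, with a median of 0.30, where 8649 of all 18461 genes lay above 0. Ero1b, 1 of the 12, was at least 2-fold higher, where 3.24% of all genes were. The 12 include the similarly named Xlr3a, Xlr3b and Xlr3c (0.29, 0.30 and 0.17). Non-member genes with ERSE-II were not part of this count. Those above the filter ran from -1.03 (Rbm39) to 0.91 (Krtcap2). The mannosyltransferase gene Alg12, named after its values were seen, read 6.74 (wildtype) and 7.16 (YAP-KO) before APAP, then 7.63 and 8.52 after.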
